A study of Homo sapiens with 6 samples.

Results

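The 10 genes described here encode subunits of AP-1, the family of dimeric transcription factors made of FOS, JUN, BATF and ATF proteins. They were chosen by name as the rows of the count table whose NCBI symbol is FOS, FOSB, FOSL1, FOSL2, JUN, JUNB, JUND, BATF, BATF3 or ATF3, 10 of 28307 genes in all. The rule uses no measured value, but the family was taken up with earlier results of these data known. The libraries were made from OCI-AML3, an established human cell line of acute myeloid leukaemia with a mutated copy of NPM1, the product of which (NPM1c) is mislocalised to the cytoplasm. The 3 siNPM1c libraries came from cells transfected with siRNA against NPM1c, and the 3 siControl libraries from cells transfected with a control siRNA. Both siRNAs were given with the same lipid reagent at a final concentration of 10 nM, total RNA was taken on day 3, and the labels give all 6 samples the genotype WT and the same batch. The data therefore describe 1 cell line at 1 time, and the labels do not say whether the replicates of a group were separate cultures, so that the spread behind each p-value is that of 3 libraries a group and may be technical only.

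AP-1 proteins share a bZIP domain, in which a basic region contacts DNA and a leucine zipper holds the dimer together. JUN proteins form dimers with each other and with FOS proteins, FOS proteins need a partner such as JUN, and the BATF proteins and ATF3 pair with JUN proteins and can displace FOS. Dimers read the TPA response element or the cyclic AMP response element, and several members respond within minutes to growth signals carried by MAP kinases. In myeloid cells AP-1 acts beside PU.1 and C/EBP factors on genes of monocytes and macrophages.

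Promoter sequences of the 5 members on which most of the results turn are shown because such genes are known to be controlled in part through sites for AP-1 and CREB/ATF proteins just before their starts. RefSeq gave starts for 8 of the 10 members, and the 250 bases before each start on GRCh38.p14 were searched on both strands. Capitals mark the cyclic AMP response element TGACGTCA, its first 5 letters TGACG, which it contains, and TGACATCA, a variant of the AP-1 site. Each is printed in the direction of its gene and without the bases that GENCODE 29 places in an exon, which take the last 73 of the 250 bases in ATF3, the last 54 in FOS and none in JUNB and JUND. In GENCODE 29 the transcript of JUN reaches to 58784327, so that all 250 bases searched before its RefSeq start lie inside that transcript, and only the 30 bases around TGACATCA are printed.
JUN (chr1:58784096-58784125, minus strand): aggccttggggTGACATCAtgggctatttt
ATF3, first listed start (chr1:212565157-212565333, plus strand): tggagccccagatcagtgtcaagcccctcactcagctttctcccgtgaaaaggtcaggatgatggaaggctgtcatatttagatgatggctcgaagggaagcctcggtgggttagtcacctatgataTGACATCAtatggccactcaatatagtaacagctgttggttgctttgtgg
FOS (chr14:75278578-75278773, plus strand): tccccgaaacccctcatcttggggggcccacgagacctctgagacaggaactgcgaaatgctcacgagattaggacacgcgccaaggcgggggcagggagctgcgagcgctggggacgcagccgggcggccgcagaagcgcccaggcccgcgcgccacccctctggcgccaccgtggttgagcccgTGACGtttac
JUNB (chr19:12791236-12791485, plus strand): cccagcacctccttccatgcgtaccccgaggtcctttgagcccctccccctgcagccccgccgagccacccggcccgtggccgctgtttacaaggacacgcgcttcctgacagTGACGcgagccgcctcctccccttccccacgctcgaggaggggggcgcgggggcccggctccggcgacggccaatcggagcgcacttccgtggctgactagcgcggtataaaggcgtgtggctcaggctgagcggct
JUND (chr19:18281623-18281872, minus strand): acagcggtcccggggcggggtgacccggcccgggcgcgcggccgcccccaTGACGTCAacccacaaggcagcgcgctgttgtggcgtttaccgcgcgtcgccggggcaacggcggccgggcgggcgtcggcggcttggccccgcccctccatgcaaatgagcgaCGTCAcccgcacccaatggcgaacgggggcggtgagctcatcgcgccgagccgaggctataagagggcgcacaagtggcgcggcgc

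The letters TGACATCA lay 67 bases before the RefSeq start of JUN, inside the GENCODE transcript, and 123 bases before the first of the 2 listed starts of ATF3, in 2 of the 8 members and in 2.37% of 35116 RefSeq promoters of the same length. The whole TGACGTCA was found in JUND alone among the 8, 200 bases before its start, and in 1.65% of all promoters. TGACG was present in 6 of the 8, namely FOS, FOSB, FOSL2, JUN, JUNB and JUND, and in 21.2% of all promoters. The windows of these 6 had 62.0% to 74.8% GC, and those of ATF3 and BATF 43.2% to 49.2%. The share among all promoters was not matched for GC content, the part of which was not tested. In FOS and FOSB TGACG lay at like distances, 64 and 60 bases before the start. The AP-1 site TGACTCA (4.2% of all promoters), the interferon-stimulated response element, searched as GAAA, any 2 letters and GAAA (3.02%), the STAT site TTCNNNGAA (6.57%) and the CArG box bound by SRF (1.16%) had no match in these windows. These are matches of letters in a short window, with no measure of binding.

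Of these libraries, the siControl group held 15075235 to 23828944 counts and the siNPM1c group 15338450 to 25190122. Ribosomal RNA genes took 63.0% to 64.5% of the counts in siControl and 69.4% to 71.0% in siNPM1c, which left 4372104 to 6695652 and 3414688 to 5358525 counts for protein-coding genes. NPM1, the gene of the target, fell 2.15-fold (log2 fold change -1.10 ± 0.05, SE). The count is of all NPM1 transcripts together and does not separate those of the mutated copy from the others. All 10 genes of a myeloid marker list passed the filter on low counts, while among 10 markers of other cell types 1 passed, and CD3D, HBB and PF4 were among those that had no count in any library. Of 12938 genes tested, 42.7% passed the quasi-likelihood test of edgeR (Benjamini-Hochberg adjusted p under 0.05), 21.3% as higher and 21.4% as lower in siNPM1c. Levels are CPM, counts scaled to the library size, after TMM scaling, which assumes that most genes do not differ. If libraries are scaled by their total counts only (library sizes alone), ribosomal RNA enters the depth and the median gene has a log2 fold change of -0.48, so each direction below is relative to that shift.

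AP-1 transcripts were higher in the siNPM1c libraries. All 10 members passed the filter, with at least 12 counts in every library, and 8 of 10 rose, against 21.3% of all genes tested. None of the 10 had a negative log2 fold change, so that 0 fell at any threshold. In these 8 the groups did not overlap, which held with a rise for 24.3% of all genes. They were JUN, JUNB, JUND, FOS, FOSL1, FOSL2, BATF and ATF3, and FOSB and BATF3 did not pass the test. The median log2 fold change of the 10 was 0.63, beside -0.01 over all genes tested. With library sizes alone 5 rose (JUN, JUND, FOS, FOSL2 and ATF3) and 0 fell, against 3.9% of all genes that rose and 71.5% that fell, and their median was 0.16. In a test against a 1.5-fold change only ATF3, FOS and JUND were called, beside 2.41% of all genes. At both scalings the counts come from whole cultures, in which more cells with a transcript and more of it per cell cannot be told apart.

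**Figure D1:**
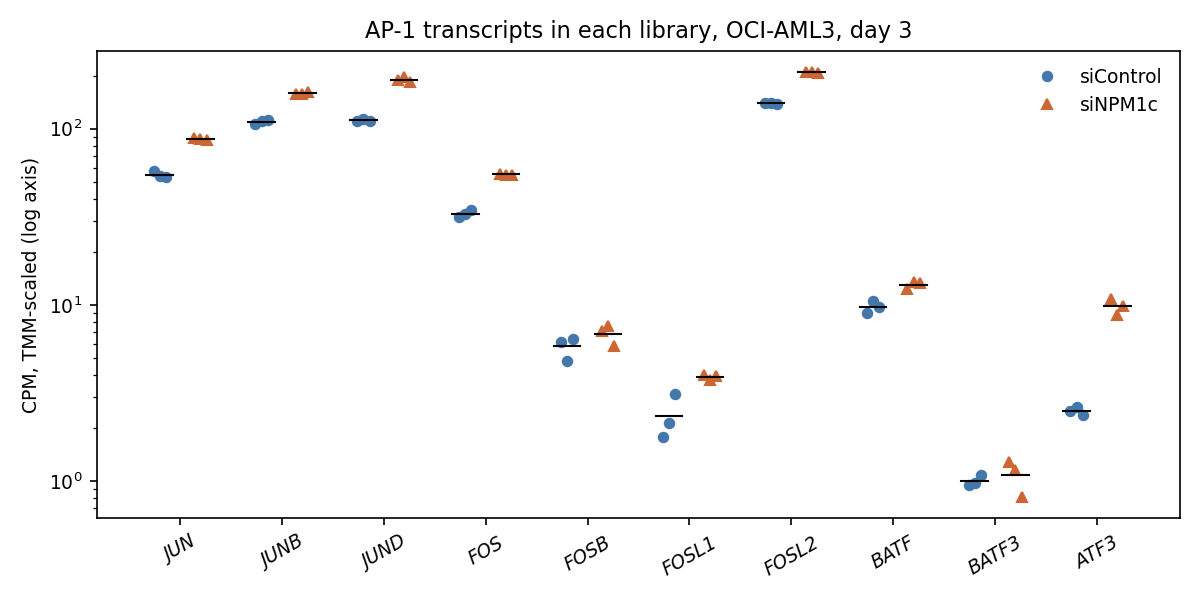
CPM after TMM scaling (log axis) of the 10 AP-1 transcripts, grouped as JUN, FOS, BATF and ATF proteins; circles are the 3 siControl and triangles the 3 siNPM1c libraries, and bars are group means. The groups stand apart for 8 genes and overlap for FOSB and BATF3.

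The JUN group supplied the most abundant members and rose as a whole. JUND, the member usually held at a steady level in resting cells (Entrez gene 3727, chromosome 19, 18279694 to 18281622 on GRCh38.p14), stood at 111, 114 and 111 CPM in the siControl libraries and at 190, 196 and 185 CPM in the siNPM1c libraries. The lowest siNPM1c library thus lay far above the highest control. JUND rose 1.71-fold, or by 0.77 ± 0.03 on the log2 scale (SE, adjusted p 9.52e-71 by edgeR), the smallest p among the members.

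JUN, the founding member and the strongest activator of its group (Entrez gene 3725, chromosome 1, 58780791 to 58784047), was at 57.6, 53.6 and 53.0 CPM in siControl and at 88.8, 87.2 and 85.9 CPM in siNPM1c. These groups did not overlap either, and the log2 fold change was 0.68 ± 0.04 (SE, adjusted p 4.38e-42 by edgeR). JUNB, which can oppose JUN in growth control (Entrez gene 3726, chromosome 19, 12791486 to 12793315), was at 107, 110 and 112 CPM against 158, 157 and 162 CPM. It had the smallest rise of the 3, with 0.53 ± 0.03 (SE, adjusted p 3.75e-44 by edgeR), and its call was lost with library sizes alone (0.07, adjusted p 0.108). In RefSeq, 865 bases of JUNB lie within the span of HOOK2, and reads there may be counted for either gene. HOOK2 itself was at 8.17 ± 0.391 and 9.05 ± 1.58 CPM (SD, n = 3), with a log2 fold change of 0.16 ± 0.11 (SE, adjusted p 0.221 by edgeR).

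In the FOS group, whose proteins act only with a partner, 3 of 4 genes rose. FOS, the classical immediate early gene (Entrez gene 2353, chromosome 14, 75278828 to 75282230), was at 31.4, 32.9 and 34.7 CPM in siControl and at 55.6, 54.8 and 54.6 CPM in siNPM1c. All 3 siNPM1c libraries were close together and above every control, and the log2 fold change was 0.73 ± 0.05 (SE, adjusted p 1.21e-34 by edgeR). FOSL2, which encodes FRA2, a FOS protein without a strong activation domain (Entrez gene 2355, chromosome 2, 28392858 to 28417317), had the tightest libraries, with 140, 140 and 138 CPM against 209, 210 and 207 CPM. Its log2 fold change was 0.58 ± 0.03 (SE, adjusted p 8.79e-56 by edgeR). The antisense gene FOSL2-AS1, whose RefSeq span shares 1815 bases with FOSL2, was at 2.38 ± 0.382 and 2.78 ± 0.150 CPM (SD, n = 3) and did not pass the test (adjusted p 0.327 by edgeR).

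FOSL1 and FOSB were scarce. FOSL1, which encodes FRA1 (Entrez gene 8061, chromosome 11, 65892049 to 65900545), had 32, 59 and 58 counts in the siControl and 53, 78 and 58 counts in the siNPM1c libraries, or 1.78, 2.14 and 3.12 CPM against 3.99, 3.74 and 3.92 CPM. The groups stood apart, but the controls were spread, so that the log2 fold change of 0.73 carried an SE of 0.18 (adjusted p 0.000311 by edgeR), and the call was lost with library sizes alone (0.26, adjusted p 0.177). FOSB, a close relative of FOS (Entrez gene 2354, chromosome 19, 45467996 to 45475179), was at 6.17, 4.82 and 6.41 CPM against 7.07, 7.62 and 5.81 CPM. Its groups overlapped, since siNPM1c replicate 3 lay below 2 of the controls, and the log2 fold change was 0.28 ± 0.13 (SE, adjusted p 0.0630 by edgeR). FOSB passed the threshold without siControl replicate 1 (0.33), without siControl replicate 3 (0.36) and without siNPM1c replicate 3 (0.38), was at 0.13 without siControl replicate 2, and had the opposite sign (-0.19) with library sizes alone.

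BATF and BATF3 lack an activation domain of their own and pair with JUN proteins, often beside IRF factors. BATF (Entrez gene 10538, chromosome 14, 75522469 to 75546992) was at 9.01, 10.5 and 9.75 CPM in siControl and at 12.3, 13.5 and 13.3 CPM in siNPM1c. The groups did not overlap and the log2 fold change was 0.41 ± 0.09 (SE, adjusted p 6.71e-05 by edgeR), but with library sizes alone it was -0.06 (adjusted p 0.568). BATF3, a factor of dendritic cells (Entrez gene 55509, chromosome 1, 212686417 to 212699840), had only 17, 27 and 20 counts in siControl and 17, 24 and 12 counts in siNPM1c. At this depth no difference was detectable (0.11 ± 0.30 log2, SE, adjusted p 0.787 by edgeR), and the sign turned with library sizes alone (-0.35).

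ATF3, a stress-induced member that pairs with JUN proteins and often represses (Entrez gene 467, chromosome 1, 212565407 to 212620777), had the largest fold change of the 10. Its counts were 45, 73 and 44 in the siControl and 144, 183 and 145 in the siNPM1c libraries, or 2.50, 2.64 and 2.37 CPM against 10.8, 8.77 and 9.79 CPM. Every siNPM1c library was far above every control. The rise was 3.83-fold (log2 fold change 1.94 ± 0.14, SE, adjusted p 4.25e-31 by edgeR), and 1.47 log2 with library sizes alone. By log2 fold change ATF3 ranked 36 among the 12938 genes tested, while the next member, JUND, ranked 538 and JUNB ranked 1147.

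**Figure D2:**
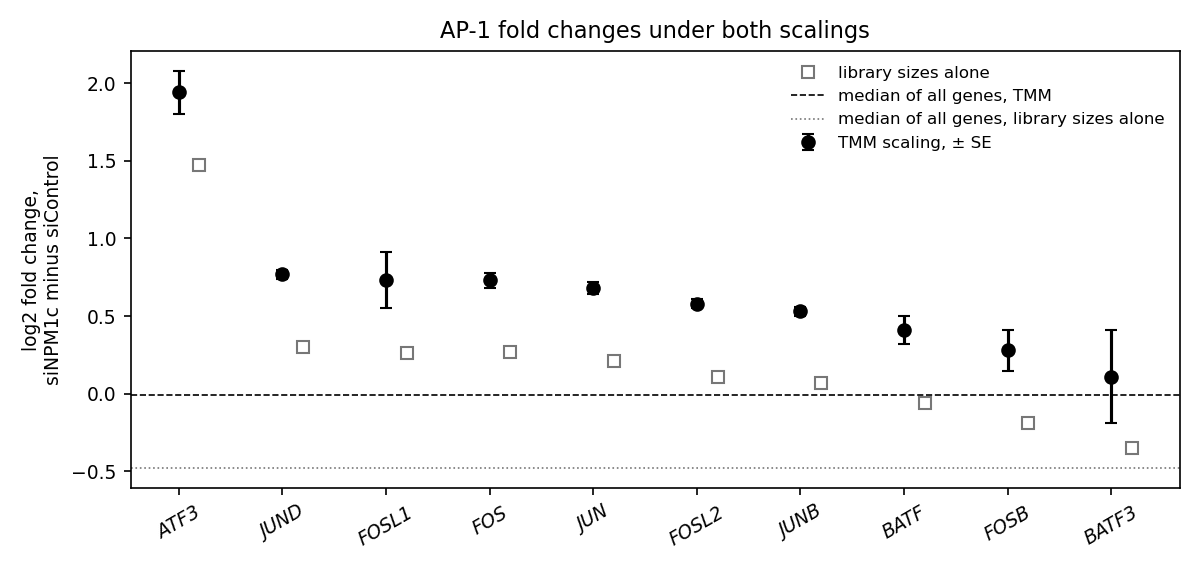
Log2 fold change (siNPM1c minus siControl) of each AP-1 gene; filled circles with SE bars are from TMM scaling, open squares from library sizes alone, and lines mark the median of all genes under each. All 10 genes lie above the median under both, and with library sizes alone FOSB, BATF and BATF3 fall below 0.

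Levels of different genes were compared per length, as CPM divided by the union exon length in kb of GENCODE 29. The order below depends on this choice, since the longest transcript is shorter than the union in some members. It has 2158 against 3238 bases in FOS and 2103 against 4040 in ATF3, while both lengths are equal in JUN, JUNB, JUND and BATF. In siControl, JUNB (60.3 ± 1.39 CPM per kb, SD, n = 3) and JUND (59.9 ± 0.906) were highest and did not differ beyond their spread, and both exceeded 99.1% of tested protein-coding genes. FOSL2 followed at 19.4 ± 0.129 CPM per kb, JUN at 15.5 ± 0.705, FOS at 10.2 ± 0.513 and BATF at 9.95 ± 0.764, the last 2 again overlapping. The scarce members were FOSL1 (1.24 ± 0.369 CPM per kb), FOSB (1.04 ± 0.154), which overlapped with it, ATF3 (0.620 ± 0.0341) and BATF3 (0.369 ± 0.0253). ATF3 exceeded 26.0% and BATF3 15.2% of tested protein-coding genes. In siNPM1c, JUND (102 ± 2.87 CPM per kb) stood above JUNB (87.4 ± 1.58), and ATF3 (2.43 ± 0.256) moved from the ninth to the seventh place, past FOSB (1.23 ± 0.167) and FOSL1 (2.06 ± 0.0684), while the order of the other members was as in siControl.

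The make-up of the transcript pool by these length-scaled levels moved little between groups. The 10 members summed to 179 ± 2.34 CPM per kb in siControl and 280 ± 2.01 in siNPM1c (SD, n = 3). Transcripts of the JUN group took 76.0% ± 0.401 of the sum in siControl and 76.6% ± 0.0299 in siNPM1c, and those of the FOS group 17.9% ± 0.342 and 17.7% ± 0.123. The 2 BATF genes went from 5.78% ± 0.365 to 4.89% ± 0.208 and ATF3 from 0.347% ± 0.0191 to 0.867% ± 0.0952. Within the JUN group, JUND went from 33.6% ± 0.424 to 36.5% ± 0.770 of the whole sum and JUNB from 33.8% ± 0.424 to 31.3% ± 0.765. These shares are descriptions without a test, and they depend on the lengths taken as transcribed.

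**Figure D3:**
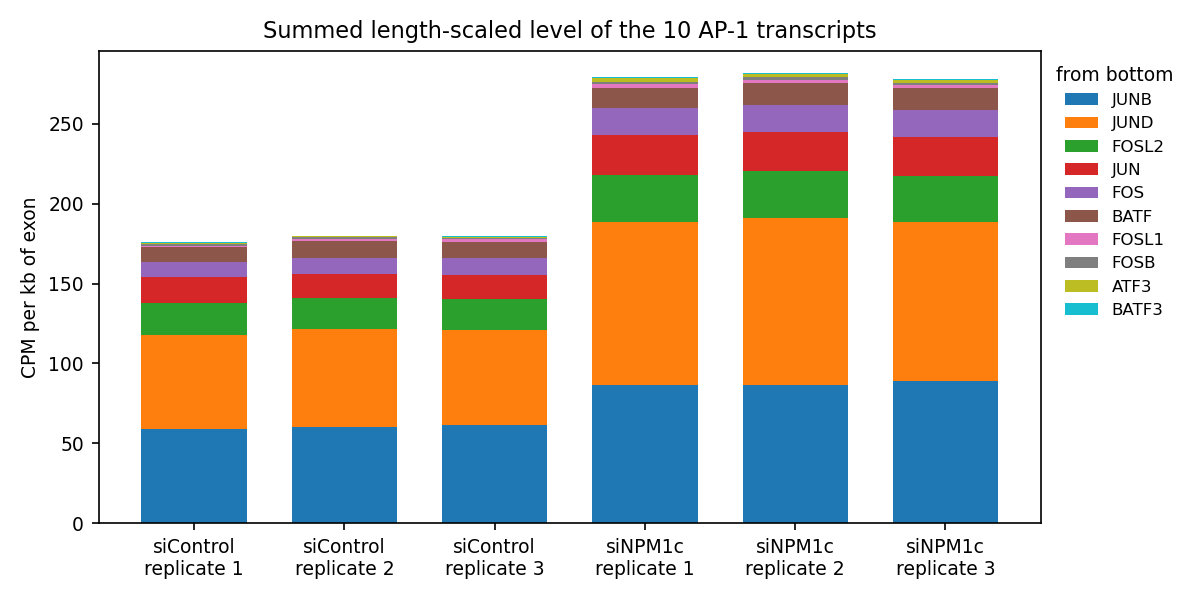
Stacked CPM per kb of exon of the 10 AP-1 transcripts in each library, in the order of the key from the bottom. The stacks reach 176 to 180 in the siControl and 278 to 282 in the siNPM1c libraries, and JUNB and JUND make up most of each.

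Ratios of 2 genes within a library do not depend on how libraries are scaled, and 5 of them were formed over JUND. The log2 ratio of JUNB to JUND was -0.05, -0.04 and 0.02 in siControl and -0.27, -0.32 and -0.19 in siNPM1c, a difference of -0.23. The ratio of FOSL2 to JUND was 0.34, 0.30 and 0.32 against 0.13, 0.10 and 0.16, a difference of -0.19. In both cases the groups did not overlap, and JUND stood higher relative to JUNB and to FOSL2 in every siNPM1c library. The ratios were not corrected for GC content, which was 69.7% in JUND, 64.9% in JUNB and 56.5% in FOSL2 (median over transcripts). The part of GC content in these differences was not tested. ATF3 over JUND went from -5.45, -5.41 and -5.53 to -4.13, -4.48 and -4.23, a difference of 1.18. JUN over JUND was -0.94, -1.08 and -1.06 against -1.10, -1.17 and -1.11, a difference of -0.10 with groups that only just stood apart. It was -0.05 without siControl replicate 1 (exact permutation p 0.2), which moved it most, and -0.07 without siNPM1c replicate 2 (p 0.3). FOS over JUND overlapped between groups (-1.76 ± 0.07 and -1.79 ± 0.04, SD, n = 3). In an exact permutation test (two-sided, 3 against 3 libraries, smallest possible p 0.1) p was 0.1 for 4 of the ratios and 0.7 for FOS over JUND, or 0.125 and 0.7 after Benjamini-Hochberg adjustment over the 5.

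**Figure D4:**
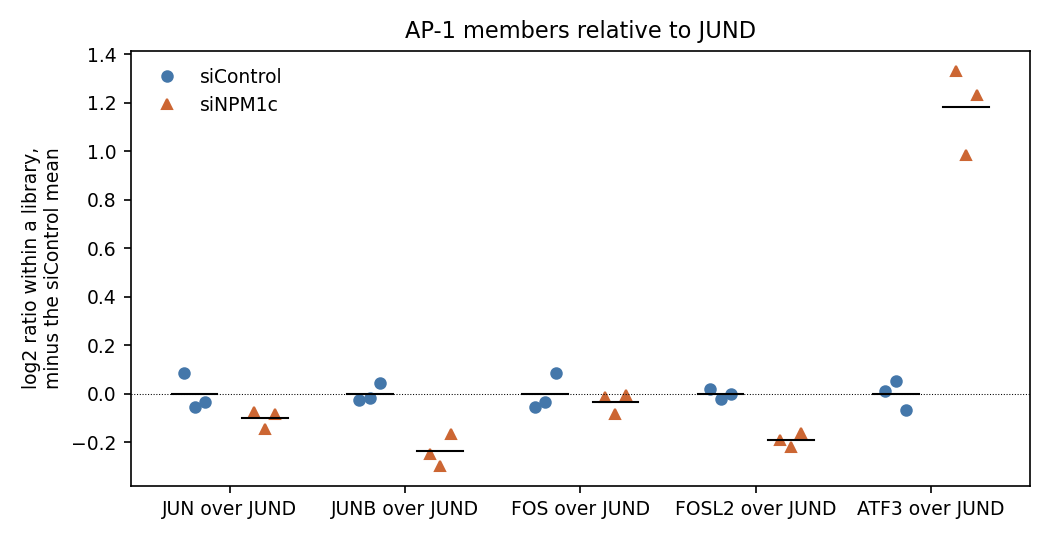
Log2 ratio of each gene's CPM to that of JUND in each library, minus the mean of the siControl libraries; circles are siControl, triangles siNPM1c and bars group means. JUNB and FOSL2 lie below and ATF3 above their controls, while FOS overlaps.

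Genes that carry the same bZIP fold and pair with AP-1 proteins were taken as a list of 17, of which 14 were tested, 9 rose and 2 fell (median 0.39 on the log2 scale). These are 64.3% and 14.3%, beside 21.3% and 21.4% of all genes. With library sizes alone 2 rose and 6 fell, beside 3.9% and 71.5% of all genes. MAFG, a small MAF protein, was at 0.42 ± 0.04 log2 (SE) and ATF4, the factor of the integrated stress response, at 0.25 ± 0.04. These values turned to -0.06 and -0.22 with library sizes alone. ATF2, a partner of JUN that is activated by stress kinases, fell from 8.25 ± 0.455 to 5.49 ± 0.453 CPM (SD, n = 3), and BACH1, a repressor that pairs with small MAF proteins, from 27.9 ± 0.745 to 22.3 ± 0.542 CPM. BATF2 and JDP2, the closest relatives of BATF and ATF3 in the list and chosen after their values were seen, rose by 0.83 ± 0.13 and 0.56 ± 0.12 log2 (SE, adjusted p 2.69e-08 and 1.54e-05 by edgeR), the latter without a call under library sizes alone (0.09, adjusted p 0.461).

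Among 14 factors known to act on FOS and JUN promoters, all tested, 5 rose and 2 fell, 35.7% and 14.3% beside 21.3% and 21.4% of all genes, and 0 rose and 12 fell with library sizes alone, where 71.5% of all genes fell. MEF2D, a MADS-box factor that binds the JUN promoter, went from 218 ± 5.87 to 272 ± 3.55 CPM (SD, n = 3). MRTFA, a coactivator of SRF, had 0.26 ± 0.03 log2 (SE) and ELK1, the ternary complex factor phosphorylated by ERK, 0.28 ± 0.08. For these 3 genes the sign turned with library sizes alone, to -0.15, -0.20 and -0.19. MEF2C fell from 5.10 ± 0.177 to 3.15 ± 0.170 CPM and SP1, a factor of GC-rich promoters, from 31.0 ± 1.71 to 25.1 ± 2.18 CPM.

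The MAP kinase cascades that lead to AP-1 moved in both directions. Of 30 listed genes 29 were tested, 6 rose and 7 fell, shares of 20.7% and 24.1% that are near those of all genes, and 0 rose and 28 fell with library sizes alone, where 71.5% of all genes fell. NRAS, the small GTPase at the head of the ERK cascade, fell from 8.60 ± 0.496 to 5.85 ± 0.532 CPM (SD, n = 3). MAP3K1, an upstream kinase of JNK, fell by 0.33 on the log2 scale (SE 0.05), but did not pass with a correction for GC content (-0.07, adjusted p 0.256). MAP3K11 had 0.32 ± 0.04 log2 (SE), MAPK14, the kinase p38 alpha, 0.26 ± 0.05 and MAP2K2, the kinase MEK2, 0.13 ± 0.04. The sign of these 3 turned with library sizes alone (-0.15, -0.21 and -0.34), and MAP2K2 did not pass with the GC correction (0.04, adjusted p 0.438).

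Of 16 genes that govern the decay of AP-1 messages or proteins, all tested, 4 rose and 3 fell, with a median of 0.09. These counts are near the 21.3% and 21.4% of all genes, and 0 rose and 14 fell with library sizes alone, where 71.5% of all genes fell. The risers included ZFP36 and ZFP36L2, RNA-binding proteins that speed the decay of AU-rich messages such as that of FOS, and the ribonuclease gene ZC3H12A. ZFP36L2 went from 208 ± 5.88 to 269 ± 7.14 CPM, ZFP36 from 39.3 ± 1.64 to 51.5 ± 1.84 CPM and ZC3H12A from 22.5 ± 1.26 to 28.9 ± 2.73 CPM (SD, n = 3), with signs that turned under library sizes alone (-0.10, -0.08 and -0.10 log2). ELAVL1, which encodes the stabilising protein HuR, fell by 0.36 on the log2 scale (SE 0.07), and DDB1, an adaptor of the ubiquitin ligase that targets JUN, by 0.24 (SE 0.04). ITCH, a ubiquitin ligase for JUN and JUNB, fell by 0.30 (SE 0.10), but this call was lost with the GC correction (adjusted p 0.231), with DESeq2 (0.0592) and without siNPM1c replicate 1 (0.123).

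Textbook AP-1 target genes changed often and in both directions. Of 25 listed genes 19 were tested, 1 of which (SPP1) passed the filter on low counts through the siNPM1c libraries alone. Of the other 18, 11 rose and 6 fell, beside 21.3% and 21.4% of all genes. With library sizes alone 4 rose and 9 fell, beside 3.9% and 71.5%. ITGAX, the integrin CD11c of myeloid cells, rose 2.37-fold from 10.6 ± 0.659 to 25.3 ± 0.286 CPM (SD, n = 3). SQSTM1, the autophagy receptor p62, rose from 127 ± 3.00 to 196 ± 4.49 CPM, and LMNA, which encodes lamin A, was at 369 ± 0.160 and 492 ± 5.29 CPM, a rise that became -0.05 log2 with library sizes alone. The intermediate filament gene VIM fell from 308 ± 7.25 to 242 ± 8.19 CPM, the adhesion receptor gene CD44 from 22.8 ± 0.584 to 16.7 ± 2.08 CPM and CCND1, which encodes cyclin D1, from 42.3 ± 0.917 to 34.2 ± 1.45 CPM. IL2 and MMP10 had no count in any library, and IL6, MMP1, MMP3 and HMOX1 were too low to test.

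Other immediate early genes, which respond to the same signals as FOS and also to handling of cells, were higher in the same libraries. Of 10 tested, NR4A3 passed the filter on low counts through the siNPM1c libraries alone. Of the other 9, 8 rose and 0 fell, beside 21.3% and 21.4% of all genes, and 5 rose and 0 fell with library sizes alone, beside 3.9% and 71.5%. IER3 rose from 4.18 ± 0.780 to 11.6 ± 0.422 CPM, IER2 from 57.3 ± 2.81 to 83.1 ± 1.66 CPM and IER5 from 16.9 ± 0.639 to 26.9 ± 1.33 CPM (SD, n = 3). The call of IER2 was lost with library sizes alone (0.07 log2, adjusted p 0.138). The part of cell handling in the AP-1 values was not tested. Of the 10 myeloid markers, MPO passed the filter through the siNPM1c libraries alone. Of the other 9 markers, 6 rose and 0 fell, beside 21.3% and 21.4% of all genes. With library sizes alone 3 of these rose and 5 fell, beside 3.9% and 71.5% of all genes. The summed level of the 10 was 469 to 481 CPM in siControl and 902 to 908 CPM in siNPM1c. LYZ, which encodes lysozyme, went from 80.2 ± 0.805 to 401 ± 8.35 CPM (SD, n = 3), and without it the sum was 390.0 to 400.0 CPM and 499 to 510.0 CPM. Their part in the AP-1 values was not tested.

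**Figure D5:**
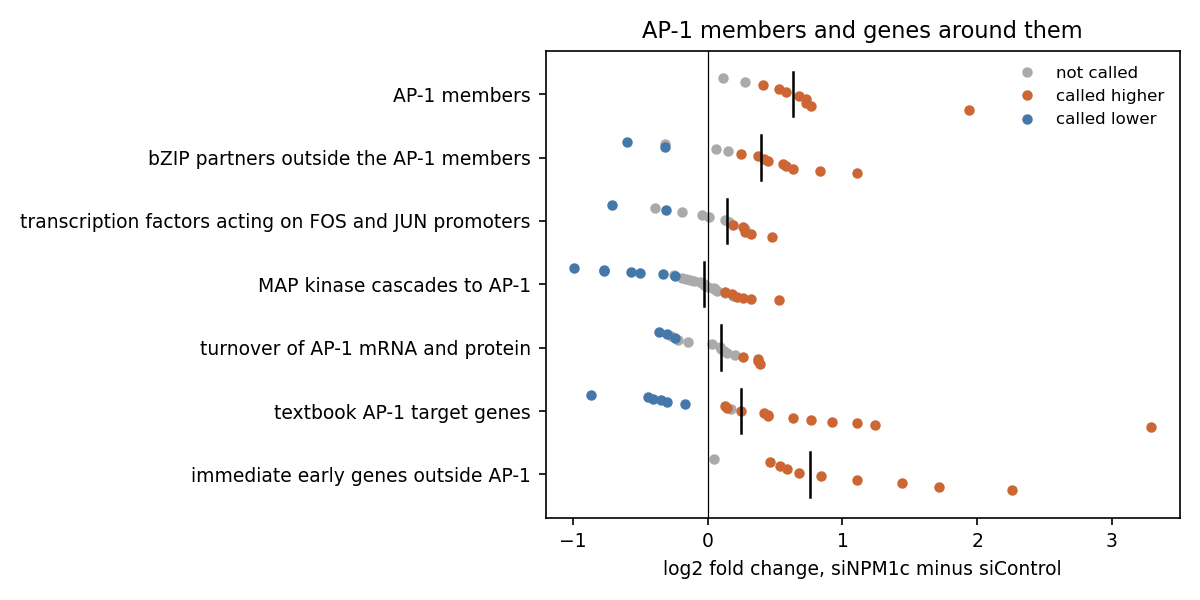
Log2 fold change (siNPM1c minus siControl, TMM scaling) of each tested gene of the AP-1 family and of 6 lists around it; each point is a gene, coloured by its call at an adjusted p of 0.05, and black bars are medians. The AP-1 members and the other immediate early genes lie to the right of 0, while the MAP kinase genes lie on both sides.

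The genes whose pattern over the 6 libraries was nearest to that of a member were found among 7353 tested genes averaging 5 CPM or more, by the root mean square difference of log2 CPM centred on its mean. Nearest to JUN were MX2 (0.00884), TSPOAP1 (0.0269) and AGRN (0.0280), and nearest to FOS were EMILIN2 (0.0234), CD82 (0.0319) and PHETA1 (0.0354). Among the 3 nearest to JUNB were C6orf120 (0.0156) and NIBAN2 (0.0236), and for FOSL2 they were PITPNC1 (0.0103), RNF213 (0.0178) and SEMA4B (0.0221). With 2 groups of 3 libraries this measure mostly reads the size of the difference between groups.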

How the data were processed

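Gene counts were taken from 6 RNA sequencing libraries. The deposited values are unnormalized whole-number counts, 1 per Entrez gene and library. Per the submitters' processing notes, the software comprised DESeq2 1.34.0, STAR 2.7.5a, CASAVA 1.8 and cutadapt 2.6, with mm10 and hg38 as builds. What each did, and how reads were assigned to genes and strands, is not given in the sources used here, so that reads of overlapping genes cannot be told apart. Columns were tied to samples by the names in the labels, and 28261 of 28307 genes were matched to a symbol in RefSeq (GRCh38.p14).

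The test was run with edgeR 4.0.16 (R 4.3.3): filterByExpr (minimum count 10, minimum total 15), TMM, glmQLFit with robust = TRUE and glmQLFTest, two-sided, adjusted by Benjamini-Hochberg over 12938 genes, with SE as the absolute log2 fold change over the square root of F. The chi-square per degree of freedom between 2 libraries of a group was 1.46 to 2.36, above the sampling noise. This cannot show whether the libraries came from separate cultures. Each library was entered in the test as 1 replicate. In simulated counts on 12948 genes for this comparison, 41.7% of genes changed 1.25-fold, 88% changed 1.5-fold, 95.9% changed 2-fold and 100% changed 4-fold were recovered. The simulation gave all genes 1 common spread between replicates (coefficient of variation 2.17% beyond counting noise). It set no shift in ribosomal RNA between groups, unlike the data, so these rates need not hold for the real comparison. Low counts limit the precision of BATF3 and FOSL1 most.

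Alternatives were 3 other scalings, scaling without ribosomal and 7SL RNA genes, protein-coding genes only, 2 other filters, DESeq2 1.42.0, limma-voom (limma 3.58.1), a fit that was not robust, a block for the replicate number, a GC correction (lowess, span 0.3), a test against a 1.5-fold change and leaving out each library. The members and gene lists were chosen with earlier results of these data known. Named beside the members were NPM1, up to 3 called genes of each list with the smallest p in each direction, and the 3 genes nearest in pattern to JUN, FOS, JUNB and FOSL2 (pseudocount 0.5 CPM). Some genes that this rule selects are not reported here.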

Additional observations from a re-analysis of the deposited data

How the results depend on the processing

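The count of 8 rising members was 7 to 9 in all alternatives except 2, and none was called lower in any. With library sizes alone 5 members rose, and in a test against a 1.5-fold change 3 rose (ATF3, FOS and JUND), beside 2.41% of all genes. Leaving out each library in turn gave 8 to 9. Over all genes 505 were higher and 9253 lower with library sizes alone, 312 and 129 against a 1.5-fold change, and 2077 and 1754 with DESeq2. Leaving out each library gave 2435 to 2675 higher and 2196 to 2579 lower. Of 102 genes tested in the 6 lists together, 45 were higher and 20 lower, beside 21.3% and 21.4% of all genes. These became 13 and 69 with library sizes alone, beside 3.9% and 71.5% of all genes. At both scalings the higher genes include SPP1 and NR4A3, which passed the filter on low counts through the siNPM1c libraries alone. Against a 1.5-fold change the counts of higher and lower genes in the lists were 9 and 0, where 2.41% of all genes were called higher. The sign turned with library sizes alone for FOSB (-0.19), BATF (-0.06), BATF3 (-0.35), MAFG (-0.06), ATF4 (-0.22), MEF2D (-0.15), MRTFA (-0.20), ELK1 (-0.19), MAP3K11 (-0.15), MAPK14 (-0.21), MAP2K2 (-0.34), ZFP36L2 (-0.10), ZFP36 (-0.08), ZC3H12A (-0.10) and LMNA (-0.05), by the construction of that scaling. The difference in FOS over JUND (-0.03) was 0.01 without siControl replicate 3, with a range of -0.06 to 0.01 over the libraries left out, and 0.06 for FOS over JUN. FOSB was called with protein-coding genes only (0.29, adjusted p 0.0456). With the replicate number as a block 8 members rose, and 2793 genes were higher and 2793 lower. Deviations of same-numbered libraries correlated at -0.00408 to 0.0193, and those of differently numbered libraries at -0.013 to 0.0159. The labels do not state a pairing, and these values cannot exclude one, because counting noise is part of each deviation. Shares per length depend on the transcript taken as the length. Depth limits FOSL1, FOSB, BATF3 and ATF3, with under 200 counts in each library.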

Other observations

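Further genes of the same lists, chosen after their values were seen, are given here as values. Among the textbook AP-1 targets, PLAUR, the urokinase receptor, rose from 34.0 ± 1.72 to 57.5 ± 3.37 CPM (SD, n = 3) and the metallothionein gene MT2A from 10.5 ± 0.992 to 22.4 ± 1.00 CPM, and both rises were also called with library sizes alone (0.30 and 0.64 log2). SPP1, which encodes osteopontin, had 3 counts in each siControl library and passed the filter on low counts through the siNPM1c libraries alone, and its level went from 0.146 ± 0.0321 to 1.46 ± 0.299 CPM. The gelatinase gene MMP9 fell from 22.9 ± 1.21 to 17.2 ± 0.760 CPM, so that PLAUR and MMP9, both genes of matrix breakdown, moved in opposite directions.

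Of the other immediate early genes, EGR3 went from 3.44 ± 0.251 to 7.33 ± 0.436 CPM and EGR2 from 0.758 ± 0.0917 to 2.51 ± 0.522 CPM (SD, n = 3), and both were called in both scalings. NR4A3, which passed the filter on low counts through the siNPM1c libraries alone, was at 0.387 ± 0.133 and 1.88 ± 0.556 CPM. The log2 fold changes of EGR3 and EGR2, 1.11 and 1.72, stood beside 0.73 for FOS and 1.94 for ATF3. EGR1, more abundant than both, rose by only 0.46 log2, without a call under library sizes alone (-0.01, adjusted p 0.932 by edgeR). NR4A2 was not called (0.05 log2). In the JNK branch of the MAP kinase list, MAP2K4 fell by 0.77 on the log2 scale (SE 0.18), and MAPK9, the kinase JNK2, was called lower with groups that overlapped (3.82 ± 0.553 against 5.26 ± 1.19 CPM). The branch did not fall as a whole, since MAP2K7 (0.13 log2) and MAPK8, the kinase JNK1 (-0.19 log2), were not called. DDIT3, the stress factor CHOP that pairs with other bZIP proteins, rose from 5.98 ± 0.366 to 8.84 ± 0.576 CPM, without a call under library sizes alone (adjusted p 0.404 by edgeR).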
